A study of Homo sapiens with 66 samples.

Results

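Binding of HIF-2α after removal of HIF-1α was followed in 4 of the 66 samples of the series. These are the HIF-2α ChIP-seq libraries of wild-type (WT) HKC-8 cells and of an HKC-8 line labelled HIF1aKO, with 2 replicates each. HKC-8 is a human proximal tubule line of the kidney. In all 4 samples the cells were held at 0.5% oxygen for 16 hours, and HIF-2α was precipitated with the rabbit polyclonal antibody PM9. Neither line carried any other labelled change. The HIF-1α KO line was made by CRISPR-Cas9 with a frameshift in the HIF-1α gene, and it is 1 clone, so the knockout and whatever else sets this clone apart cannot be told apart. The 4 lists held 23054 of the 131425 peaks in the series. To define a WT site or a KO site, overlapping peaks from both replicates of that genotype were joined into one interval. Sites were called kept when both genotypes had them in both replicates, lost when both WT replicates and neither KO replicate called a peak, and gained when the reverse held. Across both genotypes there were 5452 sites, of which 3792 were WT sites and 4296 were KO sites. A peak list states only whether a place was called, and a site absent from it may lie just under the limit of the caller.

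The hypoxia-inducible factors (HIFs) are dimers of an oxygen-regulated α subunit and the constitutive β subunit HIF-1β. When oxygen is low the α subunits escape hydroxylation and destruction, pair with HIF-1β and bind hypoxia response elements (HREs), whose core is ACGTG or GCGTG. HIF-1α and HIF-2α recognise the same core. In kidney cells HIF-1α is best known for driving glycolytic genes close to their promoters, and HIF-2α is linked to more distant enhancers and to clear cell renal cancer. The comparison asks whether HIF-2α takes up other places on chromatin when the isoform that shares its partner and its motif is missing.

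The sequences below show what the DNA at such sites looks like. They are 201-base windows at the centres of the intervals named further on, chosen from the named sites more than 1 kb from a start site and outside UTRs because, apart from ADARB1, they hold an HRE core. They are reference sequence of GRCh37, plus strand, with the interval class in parentheses. Capitals mark ACGTG or GCGTG on either strand, read as CACGT or CACGC when on the minus strand, and the AP-1 site TGACTCA or TGAGTCA, which is bound by FOS and JUN proteins. The palindrome CACGTG counts on both strands. The ADARB1 window is shown as the centre of the highest-ranked lost site, and it has none of these motifs. The windows near ADARB1, IGFBP3, TBL1XR1 and PLEKHG3 lay under HIF-2α peaks in WT cells only, and those near RTN4R and EIF2B2 in HIF-1α KO cells only. NUAK1 and UBE3D were kept, with much lower ranks in HIF-1α KO.
SLC45A1 (kept), chr1:8272182-8272382: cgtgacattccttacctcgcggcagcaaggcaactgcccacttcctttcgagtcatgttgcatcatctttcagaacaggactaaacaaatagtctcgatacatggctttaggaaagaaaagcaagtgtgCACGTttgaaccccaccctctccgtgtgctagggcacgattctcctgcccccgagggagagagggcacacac
ARRDC3 (kept), chr5:90576698-90576898: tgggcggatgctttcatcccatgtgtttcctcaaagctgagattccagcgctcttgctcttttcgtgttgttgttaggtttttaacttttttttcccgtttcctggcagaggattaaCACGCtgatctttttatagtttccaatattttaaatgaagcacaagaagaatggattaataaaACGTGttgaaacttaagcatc
MTHFD1L (kept), chr6:151366348-151366548: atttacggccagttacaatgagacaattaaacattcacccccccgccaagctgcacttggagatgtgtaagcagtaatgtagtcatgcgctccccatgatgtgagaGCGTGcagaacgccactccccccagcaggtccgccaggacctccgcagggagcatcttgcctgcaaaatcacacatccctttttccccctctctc
ADARB1 (lost), chr21:46470543-46470743: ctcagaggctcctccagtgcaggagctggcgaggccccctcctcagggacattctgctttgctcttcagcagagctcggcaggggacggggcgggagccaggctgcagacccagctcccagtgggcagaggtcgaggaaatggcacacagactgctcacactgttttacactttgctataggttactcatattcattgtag
IGFBP3 (lost), chr7:46597122-46597322: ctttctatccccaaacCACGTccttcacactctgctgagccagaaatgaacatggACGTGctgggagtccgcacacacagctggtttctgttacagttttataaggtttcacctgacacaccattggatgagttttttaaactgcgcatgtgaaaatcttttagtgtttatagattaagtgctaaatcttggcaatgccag
TBL1XR1 (lost), chr3:177138329-177138529: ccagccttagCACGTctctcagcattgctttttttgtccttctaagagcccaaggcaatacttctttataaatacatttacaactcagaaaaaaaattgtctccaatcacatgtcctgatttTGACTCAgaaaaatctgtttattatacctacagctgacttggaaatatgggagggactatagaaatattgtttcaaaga
PLEKHG3 (lost), chr14:65188194-65188394: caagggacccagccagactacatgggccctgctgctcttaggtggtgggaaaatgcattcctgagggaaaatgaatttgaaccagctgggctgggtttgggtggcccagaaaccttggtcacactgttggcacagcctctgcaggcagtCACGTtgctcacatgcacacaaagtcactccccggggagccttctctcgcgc
RTN4R (gained), chr22:20234482-20234682: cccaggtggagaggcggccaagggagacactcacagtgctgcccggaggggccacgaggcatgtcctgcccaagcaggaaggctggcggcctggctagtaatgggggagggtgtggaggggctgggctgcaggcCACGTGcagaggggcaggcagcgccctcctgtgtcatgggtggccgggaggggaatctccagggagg
EIF2B2 (gained), chr14:75447923-75448123: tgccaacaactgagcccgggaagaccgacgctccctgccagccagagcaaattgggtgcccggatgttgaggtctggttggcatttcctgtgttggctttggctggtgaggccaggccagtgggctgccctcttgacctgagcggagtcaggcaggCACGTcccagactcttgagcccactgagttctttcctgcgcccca
NUAK1 (kept, lower rank in HIF-1α KO), chr12:106468657-106468857: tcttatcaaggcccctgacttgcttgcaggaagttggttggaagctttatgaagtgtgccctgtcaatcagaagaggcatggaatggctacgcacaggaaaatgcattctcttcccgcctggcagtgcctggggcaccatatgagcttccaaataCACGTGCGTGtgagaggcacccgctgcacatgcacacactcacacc
UBE3D (kept, lower rank in HIF-1α KO), chr6:83588643-83588843: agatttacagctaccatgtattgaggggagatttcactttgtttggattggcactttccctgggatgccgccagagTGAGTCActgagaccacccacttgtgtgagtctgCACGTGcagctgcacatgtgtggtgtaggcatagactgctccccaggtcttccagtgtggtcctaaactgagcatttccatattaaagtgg

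About as many HIF-2α sites were lost as gained, and the strong sites were nearly all kept. Of the 5452 sites, 2636 were kept, which is 48.3% (95% Clopper-Pearson interval 47.0 to 49.7%), 674 were lost, 12.4% (11.5 to 13.3%), and 735 were gained, 13.5% (12.6 to 14.4%). These intervals, like all those below, cover counting error only. The remaining 482 WT sites and 925 KO sites were intermediate. In all but 1 of them the other genotype called the site in 1 replicate, and in that 1 its peaks did not overlap each other. Intermediate KO sites came mainly from 1 library, since WT replicate 2 alone called 829 of the 925 and WT replicate 1 alone 96. From the WT side, 69.5% of sites were kept (68.0 to 71.0%) and 17.8% were lost (16.6 to 19.03%). From the KO side, 61.4% were kept (59.9 to 62.8%) and 17.1% were gained (16.0 to 18.3%). The counts rest on each library. Lost sites numbered 2084 without WT replicate 1 and 1165 without WT replicate 2. Gained sites numbered 1967 without KO replicate 1, 1271 without KO replicate 2 and 1575 without WT replicate 2.

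The lists differed more between replicates in length than between genotypes. WT replicate 1 had 4537 peaks and WT replicate 2 had 6749, and the HIF-1α KO replicates had 5228 and 6540. On the log2 scale the number of peaks on the main chromosomes was 12.43 ± 0.41 (SD, n = 2) in WT and 12.51 ± 0.23 (SD, n = 2) in HIF-1α KO. The ranges overlapped, and the difference of 0.08 gave p = 1 (exact permutation test, two-sided). In this design of 2 against 2 the smallest two-sided p is 0.333, so no such test here could pass a threshold of 0.05. The study describes its replicates as independent ChIP-seq experiments. Whether each came from its own culture is not stated, so the p-values measure the spread between libraries, which may be technical. The 10 tests over libraries were corrected as a single family (Benjamini-Hochberg). They include an overlap test over 3 pairings of libraries and a sign-flip test over 8 libraries. The smallest p of the sign-flip test is 0.0078.

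Lists of one genotype shared more peaks with each other than lists of different genotypes did. Peaks of the shorter list that were also in the longer one made up 85.3% of it for the WT pair and 83.3% for the KO pair. Between genotypes they made up 65.1%, 70.4%, 73.3% and 67.3%, so the within and between values did not overlap. The mean difference was 15.3 percentage points, with p = 0.333 (exact permutation test over the 3 ways of pairing the libraries, one-sided), which is the smallest p the design allows, and an adjusted p of 0.667. Each peak was ranked within its own list by the score, from near 0% for the highest to 100% for the lowest. Over the 2636 kept sites the Spearman correlation of these ranks was 0.78 for the WT pair and 0.86 for the KO pair, against 0.62 to 0.69 between genotypes. These are descriptions across sites, which share libraries. Among the 500 top peaks of each list, at least 485 were found in each list of the other genotype.

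The share of sites that were not kept was larger further down the ranking. Sites were divided by mean rank into 5 bins of equal number. In bin 1 of the WT sites, the highest, 95.9% were kept (94.2 to 97.2%) and 26 of 758 were lost. In bin 5, the lowest, 36.1% were kept and 303 of 759 were lost, 39.9% (36.4 to 43.5%). KO sites showed the same order, with 16 of 859 gained in bin 1, 1.86%, and 331 of 860 in bin 5, 38.5%. Lost sites had a median score of 80.4 in WT replicate 1 and 106.5 in WT replicate 2, and kept sites had 155 and 320. Gained sites had median scores of 85.3 and 105 in the KO replicates, where kept sites had 233 and 296. The lowest score the lists hold is 50, and the peaks called in 1 KO replicate at intermediate WT sites had median scores of 69.8 and 80.6.

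**Figure D1:**
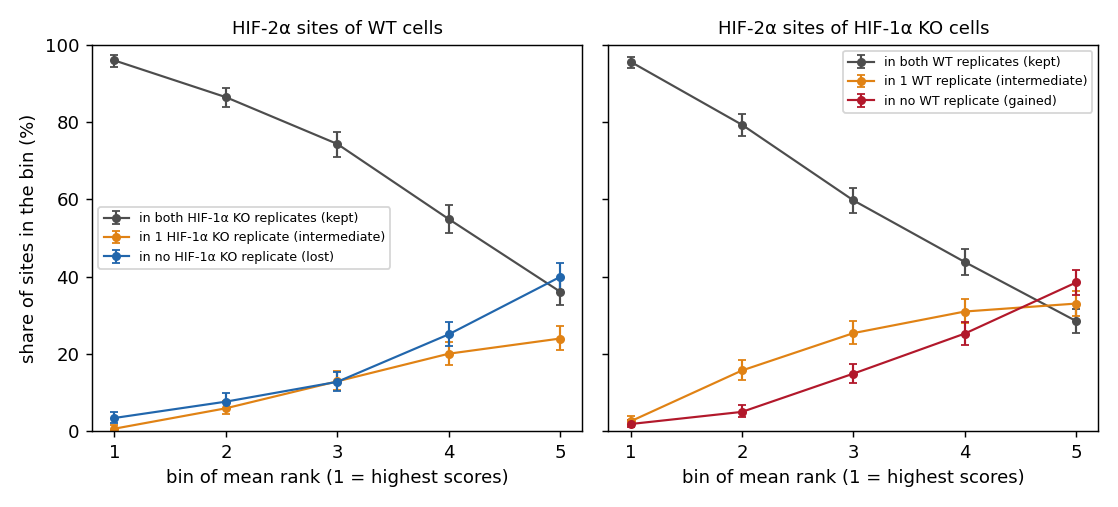
Share of HIF-2α sites (y axis, %) that were kept, intermediate, or lost or gained, by bin of mean rank within the lists (x axis, bin 1 has the highest scores). Left, WT sites sorted by WT rank, and right, HIF-1α KO sites sorted by KO rank. Points are shares and bars are 95% Clopper-Pearson intervals. In bin 1, 95.9% of WT sites and 95.6% of KO sites were kept, and in bin 5, 36.1% and 28.5%.

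The highest-ranked kept sites ranked at 0.467% or better in every list and lay away from start sites. Of the 8 kept sites with the best mean rank, the nearest genes were MOAP1 (a modulator of apoptosis), SLC45A1 (a sugar transporter), BACH1 (a repressor of haem and antioxidant genes), FRMD4A, AC092291.2, ARRDC3 (an α-arrestin), MTHFD1L (mitochondrial one-carbon metabolism) and SUSD1. Their centres were 8.34 to 106 kb from the nearest protein-coding start site. The site near BACH1, chr21:30630506-30632040 in an annotated intron of BACH1, ranked at 0.0221% and 0.319% in WT and 0.412% and 0.467% in HIF-1α KO. It was called in both WT HIF-1α libraries, in all 4 HIF-1β libraries of WT and HIF-1α KO cells and in all 8 HIF-2α libraries of the separate severity and duration experiment in HKC-8. All 8 of these top sites were also HIF-1α sites in WT cells, and all 8 still had HIF-1β in both HIF-1α KO libraries. HIF-1α sites made up 523 of the 758 sites in bin 1 of the WT ranking. Of all kept sites 77.5% had HIF-1β in both HIF-1α KO libraries. Several of these peaks share a score of 3100, so the order among them carries little.

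The most highly ranked lost site lay 23.9 kb upstream of ADARB1, an adenosine-to-inosine RNA editing enzyme. This interval, chr21:46469161-46472125, ranked at 0.144% in WT replicate 1 and 0.319% in WT replicate 2 and was absent from both HIF-1α KO lists. HIF-1β showed the same pattern, with peaks in 2 of 2 WT libraries, 0 of 2 HIF-1α KO libraries and 2 of 2 libraries of HIF-2α KO cells. HIF-1α was called there in both WT libraries. Of the 8 HIF-2α libraries of the severity and duration experiment, 1 called this site, where each of the 8 top kept sites was called in 5 to 8. The next lost site had a mean rank of 2.92%, against 0.231% here.

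The second lost site by rank was 636 kb upstream of IGFBP3, which codes for a carrier of insulin-like growth factors, at chr7:46596608-46597836. Its ranks were 3.38% and 2.45% in WT. The third, chr3:177137717-177139141, was 193 kb upstream of TBL1XR1, a corepressor component, with ranks of 4.73% and 1.38%. Further down came sites near CDC5L (a splicing factor), TMEM132D, PLEKHG3 and RAB40C (a small GTPase), the lowest with a mean rank of 9.50%. All 8 of the top lost sites had HIF-1β in both WT libraries and in neither HIF-1α KO library, against 51.5% of all lost sites. Each also had HIF-1α in at least 1 WT library. In bin 1 of the WT ranking, 523 of 758 sites had it in both. All 8 were intergenic or intronic, as were most sites. Of all lost sites 53.7% were intergenic and 43.5% intronic, and of all kept sites 49.4% and 46.7%.

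Gained sites had no member as high in the ranking. The first, chr14:105201149-105203428, lay in an intron of ADSS1, an enzyme of purine synthesis, 6.22 kb from the start site. It ranked at 5.10% and 3.08% in HIF-1α KO and had no peak in either WT list. HIF-1β was called there in 0 of 2 WT libraries and 2 of 2 HIF-1α KO libraries. The same HIF-1β pattern held at the gained site near EIF2B2, a translation initiation factor subunit, at chr14:75447374-75448673. It also held at the 2 gained sites of the top 8 near MYC, the growth-promoting transcription factor. These lay 116 and 439 kb downstream of its start. At the site near RTN4R (the Nogo receptor), chr22:20233494-20235670, ranked at 6.07% and 7.32% in HIF-1α KO, HIF-1β was called in 1 of 2 WT libraries and both KO libraries. Some of these places also had HIF-2α peaks in the separate severity and duration experiment in HKC-8. Of its 8 HIF-2α libraries, 1 called the ADSS1 site, 3 the EIF2B2 site and 0 the RTN4R site. The MYC sites were called in 2 (at 116 kb) and 6 (at 439 kb). Over all gained sites, 8.16% had a peak in any of the 8.

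The other gained sites of the top 8 were bound by HIF-1α in WT cells. They lay near NEK6 (a mitotic kinase), near IGFL1 and at the start site of NARF, at chr17:80415414-80416705. At all 3, HIF-1α was called in 2 of 2 WT libraries, and HIF-1β in every library of WT, HIF-1α KO and HIF-2α KO cells. HIF-2α ranked at 7.32% and 8.11% near NEK6, 12.6% and 8.604% near IGFL1 and 9.39% and 14.1% at NARF in HIF-1α KO, with no peak in WT. Each of the 3 was called in 0 of the 8 severity and duration libraries. These sites were uncommon. In WT cells 142 of 1105 HIF-1α sites had no HIF-2α peak in either library, and 15 of these 142, 10.6%, had HIF-2α peaks in both KO libraries. The same number, 15 of the 735 gained sites, 2.04% (1.15 to 3.34%), coincided with a WT HIF-1α site, against 920 of all 5452 sites, 16.9%. A gained site has no HIF-2α peak in WT, so only the 142 sites without HIF-2α could have counted here.

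The 142 HIF-1α sites without HIF-2α also check the genotype label, since no HIF-1α library of the KO cells was used here. In WT cells HIF-1β was called at 136 and 137 of them. In HIF-1α KO cells it was called at 6 and 19. HIF-1β was thus missing from most places where HIF-1α alone had been called. The lists hold no expression values, so the labelled tissue was not checked against marker genes.

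HIF-1β, measured with another antibody in other libraries, tracked the lost and gained HIF-2α sites. At lost sites it was called in 64.4% and 80.3% of sites by the WT libraries, and in 5.04% and 8.75% by the HIF-1α KO libraries. At gained sites the order was turned round, with 21.2% and 38.2% in WT and 34.6% and 73.3% in HIF-1α KO. At gained sites the highest WT library lay above the lowest KO library, so there the genotypes overlapped, whereas at lost sites they did not. At kept sites HIF-1β was called at 93.9% and 97.8% in WT and 79.5% and 93.3% in HIF-1α KO. Lost sites made up 69.7% ± 5.48 (SD, n = 2) of the lost or gained sites called by WT HIF-1β libraries and 10.8% ± 1.37 (SD, n = 2) of those called by KO libraries. The difference of −58.9 percentage points gave p = 0.333 (exact permutation test, two-sided, the smallest possible) and an adjusted p of 0.667.

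Site by site, 347 of the 674 lost sites, 51.5% (47.6 to 55.3%), had HIF-1β in both WT libraries and in neither KO library, and 0 had the reverse, which at 3 counts allows a share of up to 0.445%. Among gained sites 121 of 735, 16.5% (13.9 to 19.3%), had HIF-1β in both KO libraries and in neither WT library, and 20 had the reverse. Another 91 lost sites, 13.5%, and 108 gained sites, 14.7%, had no HIF-1β peak in any of the 4 libraries. For kept sites that share was 0.61%. In HIF-2α KO cells, where HIF-1α is the labelled partner left, HIF-1β was called at 48.3% and 42.0% of kept sites, 10.8% and 7.42% of lost sites and 13.1% and 9.80% of gained sites.

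**Figure D2:**
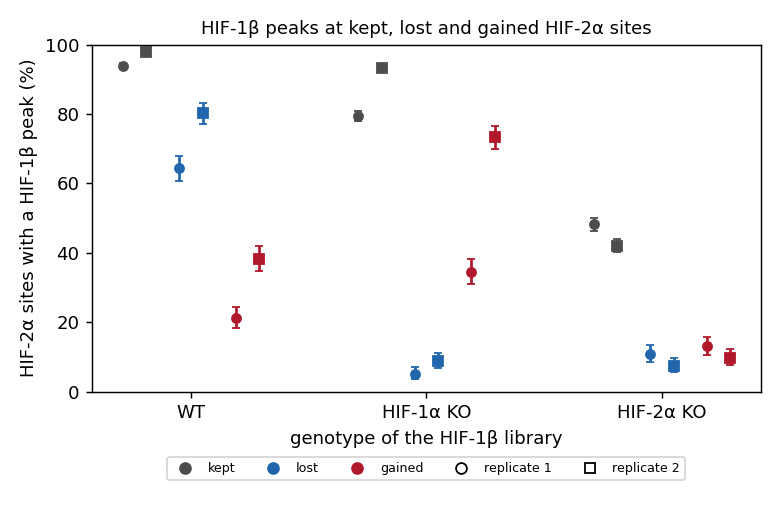
Share of kept (grey), lost (blue) and gained (red) HIF-2α sites that carried a HIF-1β peak (y axis, %) in each HIF-1β library (x axis, genotype of the library). Circles are replicate 1, squares replicate 2 and bars 95% Clopper-Pearson intervals. Lost sites went from 64.4% and 80.3% in WT to 5.04% and 8.75% in HIF-1α KO, and gained sites were highest in HIF-1α KO, at 34.6% and 73.3%.

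Most lost sites were not HIF-1α sites. HIF-1α had been called in both WT libraries at 30.0% of kept sites (28.3 to 31.8%), at 8.01% of lost sites (6.08 to 10.3%) and at 2.04% of gained sites. Over whole lists, the share of HIF-2α peaks at WT HIF-1α sites was 17.2% ± 4.50 (SD, n = 2) in WT and 15.2% ± 2.14 (SD, n = 2) in HIF-1α KO. The ranges overlapped, at 20.4% and 14.04% in WT and 16.7% and 13.6% in HIF-1α KO, with p = 0.667 (exact permutation test, two-sided) and an adjusted p of 0.833. Without WT replicate 1 the difference turned to 1.111 percentage points. Since HIF-1α sites rank high, lost shares were also set side by side within the 5 bins of the WT ranking. In bin 1, 16 of 523 sites with HIF-1α were lost, 3.06% (1.76 to 4.92%), and 10 of 235 without it, 4.26% (2.06 to 7.69%). In bin 2 the lost shares were 7.91% with HIF-1α and 7.57% without it, in bin 3 8.14% and 13.4%, and in bin 4 20.4% and 25.4%. In bin 5, 6 of 36 with HIF-1α were lost, 16.7% (6.37 to 32.8%), and 297 of 723 without it, 41.1% (37.5 to 44.8%). The intervals overlapped in bins 1 to 4 and were apart only in bin 5, which had the fewest sites with HIF-1α.

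Kept sites with HIF-1α had median ranks near the top of the lists in both genotypes. The 792 kept sites at WT HIF-1α sites had median HIF-2α ranks of 11.1% and 8.19% in WT and 10.9% and 9.29% in HIF-1α KO. The 1844 kept sites without HIF-1α had median ranks of 43.3% and 27.8% in WT and 37.1% and 29.0% in HIF-1α KO. The gap between the groups was −25.9 ± 8.89 points (SD, n = 2) in WT and −23.0 ± 4.56 points (SD, n = 2) in HIF-1α KO, and the difference of 2.89 points gave p = 1 (exact permutation test, two-sided). It turned to −1.10 without WT replicate 1 and to −1.32 without KO replicate 2. The median shift per site, KO minus WT, was 0.069 points with HIF-1α (quartiles −4.24 and 4.71) and −2.40 points without (−14.8 and 10.8), where a negative shift means a higher place in HIF-1α KO. Single sites went both ways, since of the 792 sites with HIF-1α 198 ranked higher and 221 ranked lower in both KO lists than in either WT list, and of the 1844 without it 459 and 398.

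**Figure D3:**
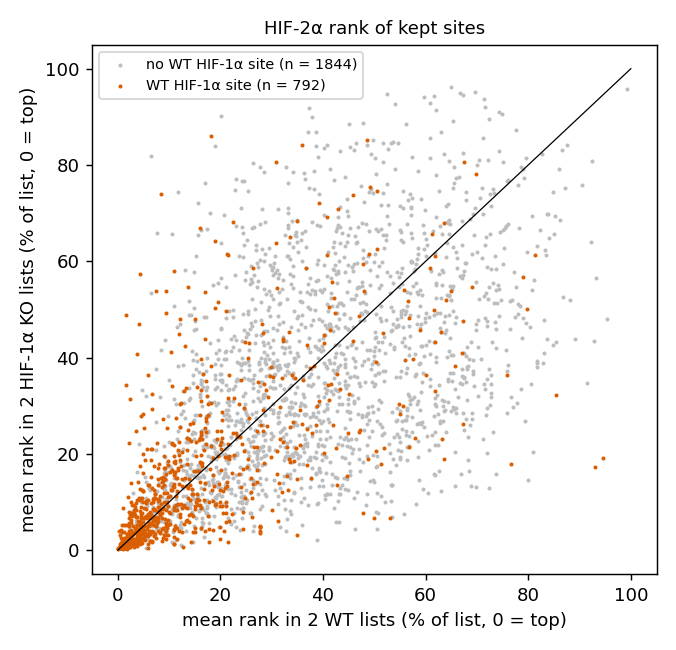
Mean HIF-2α rank of each of the 2636 kept sites in the 2 WT lists (x axis) and the 2 HIF-1α KO lists (y axis), in % of the list with 0 as the highest score. Orange points are the 792 sites with a WT HIF-1α site, grey points the 1844 others, and the line marks equal rank. Orange points gather at the top of both rankings, with median ranks of 8.19% to 11.1% in the 4 lists.

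The order of ranks at kept sites was sorted by whether the genotypes overlapped. Both KO ranks were above both WT ranks at 657 kept sites, 24.9%, and below both at 619, 23.5%. With 2 lists a genotype such an order also arises without any difference, so these counts are a description. Of the sites that ranked higher in HIF-1α KO, 12.3% (9.91 to 15.1%) lay within 1 kb of a protein-coding start site, against 3.88% (2.50 to 5.71%) of those that ranked lower. HREs were found in 60.1% (56.3 to 63.9%) and 48.6% (44.6 to 52.6%), and the mean GC content was 52.4% and 46.8%. WT HIF-1α sites made up 30.1% (26.6 to 33.8%) and 35.7% (31.9 to 39.6%). The HIF-1β libraries played no part in this sorting. Among the 556 higher-ranked sites called in all 4 HIF-1β libraries, the median HIF-1β rank was 24.3% and 19.1% in WT and 24.9% and 14.8% in HIF-1α KO. Among the 402 lower-ranked sites so called it was 14.4% and 11.4% in WT and 41.7% and 26.7% in HIF-1α KO. Among the 1012 sites with overlapping HIF-2α ranks it was 21.6% and 14.2% in WT and 33.7% and 19.8% in HIF-1α KO. Only in the lower-ranked group were the genotypes separated without overlap, and the difference between the groups was not tested.

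The kept sites that ranked highest in HIF-1α KO relative to WT included 3 within 1 kb of a start site. These were at TTC30A (intraflagellar transport), chr2:178482639-178484104, DTNB (a dystrophin-associated protein), chr2:25896570-25897443, and CPOX (an enzyme of haem synthesis), chr3:98312233-98313312. At TTC30A the ranks were 95.3% and 93.7% in WT and 19.9% and 18.5% in HIF-1α KO, and at CPOX 77.1% and 76.3% against 17.6% and 18.1%. Others were near SAMD5 and ZFAT. The kept sites that ranked lowest in HIF-1α KO relative to WT were near COLEC10, NUAK1 (an AMPK-related kinase), UBE3D, ARHGAP45, GLI3 (an effector of Hedgehog signalling) and GPR37L1, and of these ARHGAP45 lay within 1 kb of a start site. At NUAK1, chr12:106468133-106469382, ranks went from 27.1% and 13.1% to 88.2% and 92.1%. HIF-1β was called there in both WT libraries and in neither HIF-1α KO library.

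Gained sites lay nearer to start sites than lost sites. The median distance to the nearest protein-coding start site was 19.6 kb for gained, 28.3 kb for kept and 46.3 kb for lost sites. Within 1 kb lay 102 of 735 gained sites, 13.9% (11.5 to 16.6%), 192 of 2636 kept sites, 7.28% (6.32 to 8.34%), and 21 of 674 lost sites, 3.12% (1.94 to 4.72%). Beyond 100 kb lay 17.96% of gained, 21.6% of kept and 27.7% of lost sites. The intermediate sites stood between, with 4.15% of intermediate WT sites and 9.30% of intermediate KO sites within 1 kb. Introns held 47.3% of gained, 46.7% of kept and 43.5% of lost sites by their centres.

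Over whole lists the promoter-proximal share was 6.26% and 5.80% in the WT replicates and 8.49% and 10.4% in the HIF-1α KO replicates. The genotypes did not overlap. The means were 6.03% ± 0.32 (SD, n = 2) and 9.46% ± 1.37 (SD, n = 2), and the difference of 3.43 percentage points gave p = 0.333 (exact permutation test, two-sided, the smallest possible), with an adjusted p of 0.667. Within the KO ranking, promoter-proximal sites were gained more often than distal ones in the lower bins. In bin 5, 47 of 77 promoter-proximal KO sites were gained, 61.0% (49.2 to 72.0%), against 284 of 783 distal ones, 36.3% (32.9 to 39.7%). In bin 1 the counts were 2 of 84 and 14 of 775. Promoter-proximal WT sites were lost in 21 of 233 cases, 9.01% (5.67 to 13.4%), and distal ones in 653 of 3559, 18.3% (17.1 to 19.7%).

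**Figure D4:**
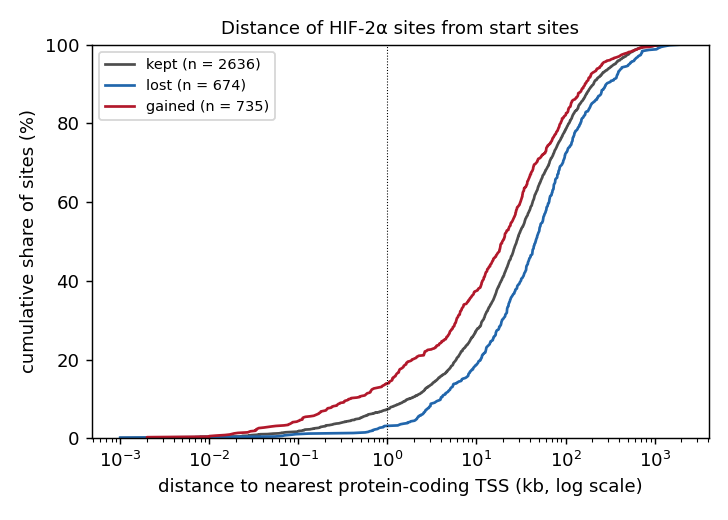
Cumulative share of sites (y axis, %) by distance from the site centre to the nearest protein-coding start site (x axis, kb, log scale) for 2636 kept, 674 lost and 735 gained HIF-2α sites. The dotted line marks 1 kb. The gained curve lies to the left, with a median of 19.6 kb, and the lost curve to the right, with a median of 46.3 kb.

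HRE cores were more common at gained than at lost sites, in richer surroundings. Windows of 201 bases at the centre held ACGTG or GCGTG, on either strand, at 56.7% of gained (53.1 to 60.4%), 50.8% of kept (48.9 to 52.7%) and 41.7% of lost sites (37.9 to 45.5%). Windows of the same length 2 kb to each side held a core in 25.3%, 22.05% and 16.1%. The classes thus kept their order in the flanks. At least 2 cores stood in 23.9% of gained and 12.3% of lost windows. The difference lay in GCGTG, found at 28.8% of gained and 14.99% of lost sites, more than in ACGTG, at 36.5% and 32.0%. The longer form TACGTG was found in 9.39% of gained (7.38 to 11.7%) and 13.4% of lost windows (10.9 to 16.2%), the opposite order. Among sites more than 1 kb from a start site, HRE cores stood at 54.5% of gained (50.5 to 58.4%) and 41.5% of lost sites (37.7 to 45.4%). The lists give no summits, so the centre of an interval of about 1 kb stands in for the point of binding, and a core outside the window goes unseen.

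Base composition differed along with the motifs. Mean GC content was 53.9% at gained, 49.997% at kept and 44.5% at lost windows, and 47.0%, 45.4% and 42.1% in their flanks. Windows held 5.72 CpG dinucleotides on average at gained, 4.03 at kept and 2.53 at lost sites. The GC box GGGCGG, the core bound by SP1, was found at 12.4% of gained (10.1 to 14.98%) and 3.56% of lost windows (2.29 to 5.25%). Over whole lists GC content was 48.1% and 49.1% in WT and 51.0% and 51.9% in HIF-1α KO, with no overlap. The means, 48.6% ± 0.70 and 51.4% ± 0.67 (SD, n = 2 each), differed by 2.81 percentage points, with p = 0.333 (exact permutation test, two-sided, the smallest possible) and an adjusted p of 0.667. The HRE share was 49.5% and 43.1% in WT and 51.9% and 49.1% in HIF-1α KO. Those ranges overlapped, and the difference of 4.23 percentage points gave p = 0.667 (exact permutation test, two-sided), with an adjusted p of 0.833.

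AP-1 sites were found at similar shares of kept and gained windows. TGACTCA or TGAGTCA was found at 18.3% of kept (16.8 to 19.8%), 17.4% of gained (14.7 to 20.4%) and 13.1% of lost windows (10.6 to 15.8%), against 4.27%, 4.08% and 2.45% in their flanks. The share per list was 17.5% and 18.5% in WT and 18.5% and 18.4% in HIF-1α KO, and the difference of 0.501 percentage points gave p = 0.667 (exact permutation test, two-sided). Motifs of other factors showed a different order. GGAATG, the core of TEAD sites, stood at 28.2% of lost (24.8 to 31.8%), 22.6% of kept (21.1 to 24.3%) and 20.4% of gained windows (17.6 to 23.5%), and AACCACA, the core of RUNX sites, at 9.20% (7.13 to 11.6%), 5.35% (4.52 to 6.28%) and 5.17% (3.68 to 7.03%). Flanking windows held GGAATG in 10.8% to 11.5% and AACCACA in 3.30% to 3.86%. The E-box CACGTG, which is also a palindromic HRE core, was found at 9.93% of gained (7.87 to 12.3%) and 5.04% of lost windows (3.52 to 6.98%). A match says only that the letters are present.

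**Figure D5:**
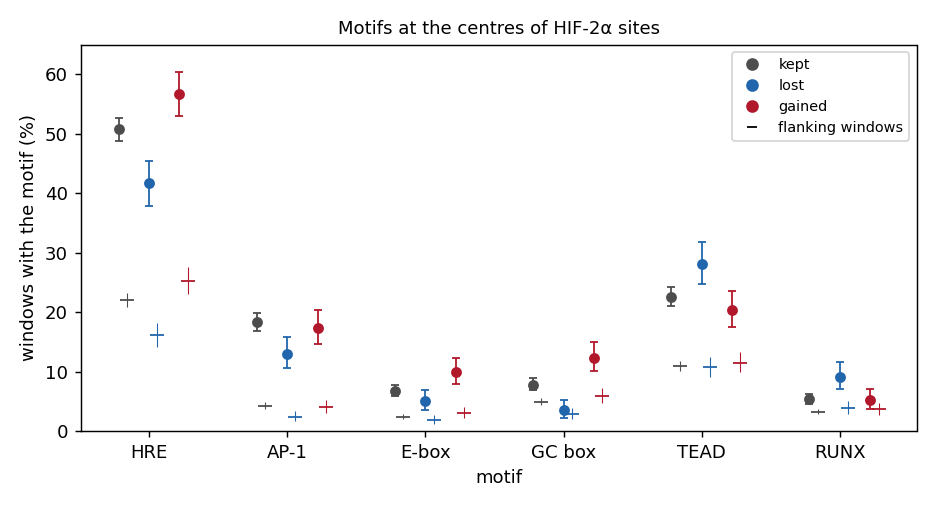
Share of 201-base windows (y axis, %) that held each motif (x axis) at the centres of kept, lost and gained HIF-2α sites (circles) and 2 kb to each side of the same sites (dashes). Bars are 95% Clopper-Pearson intervals. HRE and GC box matches were most common at gained sites, at 56.7% and 12.4%, and TEAD and RUNX matches at lost sites, at 28.2% and 9.20%.

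Sites next to glycolytic genes were mostly kept. The nearest gene was on the glycolysis and glucose list at 33 sites, which belonged to 18 of its 24 genes. Of these sites 22 were kept, 66.7% against 48.3% of all sites, 0 were lost, against 12.4% of all sites, and 2 were gained, 6.06% against 13.5%. A count of 0 was taken to allow up to 3 counts, here a share of up to 9.09%. WT HIF-1α sites were found at 18 of the 33, and at 16.9% of all sites. High-ranked sites were kept more often in general. Neither this list nor those below were set against all sites of equal rank. At the promoter of LDHA (lactate dehydrogenase A), chr11:18415187, HIF-2α ranked at 5.57% and 19.7% in WT and 0.843% and 0.467% in HIF-1α KO. In ALDOA (aldolase A), 0.309 kb from a start site, ranks were 17.05% and 22.7% in WT and 3.08% and 1.73% in HIF-1α KO, and at GAPDH 22.4% and 6.87% against 3.87% and 3.67%. All 3 ranked higher in both KO lists than in either WT list. About as many ranked lower, since of the 22 kept sites 8 ranked higher in both KO lists, 36.4%, and 7 ranked lower, 31.8%. The shares over all kept sites were 24.9% and 23.5%. The 7 lower sites lay near ENO1 (2 sites), GBE1, PFKFB3, PFKFB4, PFKP and SLC2A3. At PFKFB4, a regulator of fructose 2,6-bisphosphate, ranks were 7.56% and 7.51% in WT and 47.3% and 60.4% in HIF-1α KO. The median rank shift of the kept sites on the list was −2.90 points, where the median of all kept sites was −0.59 points. The 2 gained sites were at ENO2 (an enolase) and SLC2A1 (the glucose transporter GLUT1), both low in the KO lists, at 80.3% and 64.3% and at 99.4% and 57.3%.

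Sites of secreted vascular and growth factors were kept in 14 of 22 cases, 63.6% against 48.3% of all sites, with 0 lost and 2 gained, 9.09% against 13.5%. The 0 lost allows up to 13.6% (3 counts), which is above the 12.4% of all sites. Of the 14 kept sites 10 ranked higher in both KO lists, 71.4% against 24.9% of all kept sites. Those that ranked lower numbered 0, against 23.5% of all kept sites. The median rank shift of the 14 was −9.99 points, against −0.59 points for all kept sites. At the VEGFA site 0.468 kb upstream of a start site, HIF-2α ranked at 32.9% and 13.4% in WT and 10.5% and 7.24% in HIF-1α KO. The gained site at the start of ANGPTL4, a regulator of lipoprotein lipase, ranked at 44.5% and 22.7% in HIF-1α KO and lay next to a stronger kept site 0.810 kb upstream of the start. The other gained site was at APLN, which encodes the peptide apelin.

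The mitophagy and stress list had 13 of its 18 sites kept, 72.2%, with 3 lost, 16.7%, and 1 gained, 5.56%, where all sites had 48.3%, 12.4% and 13.5%. The lost sites were 2 near NDRG1 and 1 near MXI1, and both genes also had kept sites. At CA9 (carbonic anhydrase IX), whose kept site lay 0.008 kb from the start, HIF-2α ranked at 20.1% and 6.53% in WT and 41.5% and 25.7% in HIF-1α KO. At ANKRD37 the order was reversed, 23.5% and 32.1% against 7.19% and 2.53%. Of the 13 kept sites 6 ranked higher in both KO lists, 46.2% against 24.9% of all kept sites. The CA9 site was the only 1 that ranked lower in both, 7.69% against 23.5% of all kept sites. The collagen modification list had 8 of 11 sites kept, 72.7%, 1 lost, at PLOD2, and 1 gained, at LOXL2, each 9.09%. Both encode enzymes that act on collagen lysines, and each had other sites that were kept.

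Sites near genes of the HIF system fell into every class. Of 29 sites near its genes, 16 were kept, 6 were lost, 20.7%, and 4 were gained, 13.8%, against 12.4% lost and 13.5% gained over all sites. Of the lost sites 4 were among the 11 assigned to CITED2, a transactivation inhibitor that competes for p300, and all lay 213 to 669 kb upstream of it. The others were near ARNT2, a relative of HIF-1β, and EGLN3, an oxygen-sensing prolyl hydroxylase. Gained sites were found near EGLN1, BHLHE40, BHLHE41 and HIF3A. The kept site 63.5 kb upstream of EPAS1, which encodes HIF-2α, ranked at 38.05% and 25.2% in WT and 32.3% and 16.98% in HIF-1α KO, so its ranges overlapped. Genes without any site on this list included HIF1A.

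Near genes of the HIF-2-linked list, 14 of 21 sites were kept, 66.7% against 48.3% of all sites. Another 2 were lost and 2 were gained, 9.52% each, near the 12.4% and 13.5% of all sites. EGFR, a receptor tyrosine kinase, had 8 sites, of which 6 were kept. A site in an EGFR intron, chr7:55253282, ranked at 2.48% and 0.846% in WT and 1.71% and 1.19% in HIF-1α KO. Of the 14 kept sites on the list 2 ranked higher in both KO lists, 14.3%, and 5 lower, 35.7%. The shares over all kept sites were 24.9% and 23.5%. The median rank shift of the 14 was 1.76 points. At the kept SMYD3 site, chr1:246598561, among the 5 lower, ranks went from 1.95% and 9.07% in WT to 31.5% and 32.5% in HIF-1α KO. The lost sites were near CXCR4 and SMYD3. AP-1 family genes had 9 of 21 sites kept, 42.9%, 3 lost, 14.3%, and 2 gained, 9.52%, against 48.3%, 12.4% and 13.5% of all sites. FOS lost both of its sites, 23.8 and 19.2 kb upstream, with WT ranks of 16.7% and 4.20% at the first and 12.3% and 16.9% at the second. HIF-1β was called there in both WT libraries, in neither HIF-1α KO library and in both HIF-2α KO libraries. JUN and FOSL2 kept 4 and 3 sites. Of the 9 kept sites on this list 6 ranked higher in both KO lists, 66.7%, and 2 lower, 22.2%. The shares over all kept sites were 24.9% and 23.5%. The median rank shift of the 9 was −17.5 points, against −0.59 points for all kept sites. Genes of the kidney lineage had 8 of 19 sites kept, 42.1%, 4 lost, 21.1%, and 0 gained. That 0 allows up to 15.8% (3 counts), which is above the 13.5% of all sites. A lost site lay 73.0 kb upstream of PAX2, a transcription factor of the developing kidney, with ranks of 30.3% and 20.7%, and the promoter site of PAX8, its relative, was kept. All lists together held 174 sites, with 59.8% kept, 10.9% lost and 8.05% gained. They were chosen with earlier results of these data known, so the counts describe and do not test.

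The 5452 sites had 3202 nearest genes, of which 1862, 58.2%, had a kept site. Lost sites were found at 564 of these genes, of which 229, 40.6%, also had a kept site and 257 had no other site than lost ones. Gained sites were found at 671 genes, of which 208, 31.0%, also had a kept site and 365 had none but gained ones. Both a lost and a gained site occurred at 57 genes. At ZMIZ1, 4 of 8 sites were gained and 0 lost, at HES1 4 of 8 and 0, and at AGPAT4 3 of 11 were lost and 0 gained. These genes were picked out after their values were seen.

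Chromosome 8 held more lost sites than its share. There 67 of 336 sites were lost, 19.9%, and 36 were gained, 10.7%. Among 556 intervals of 5 Mb that held a site, the 3 with the most lost sites were neighbours on its long arm, with 21 of 35, 8 of 27 and 11 of 36 sites lost between 115 and 130 Mb. No interval elsewhere had more than 7. The lost sites there lay near MED30 (8 of 9 sites), POU5F1B (9 of 10), SAMD12 (6 of 8), COLEC10 (5 of 6) and TNFRSF11B (5 of 9). Near MYC, within the same stretch, 5 of 6 sites were gained. In the 115 to 120 Mb interval, HIF-1β was called in both WT libraries at 7 of the 21 lost sites and in any HIF-1α KO library at 0. These intervals and genes were also singled out after their values were seen. Input libraries and the DNA copy number of the clone were not analysed here. Without chromosome 8, 607 of 5116 sites were lost, 11.9%, and 699 were gained, 13.7%. At the other end, chromosome 19 had 3 lost and 31 gained sites of 185, and its kept sites had a median rank shift of −6.41 points, the lowest of any chromosome.

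The lost and gained sites had few peaks in the HIF-2α libraries of the separate severity and duration experiment in HKC-8, whose lists hold 237 to 1493 peaks. The 8 libraries, from 6 hours at 3% oxygen to 48 hours at 0.5%, called 1.52% to 24.8% of kept sites. Among lost sites they called 0.148% to 1.78%, and among gained sites 0.136% to 2.99%. The lost share was below the gained share in 5 of 8 libraries, with a mean difference of −0.696 percentage points and p = 0.109 (exact sign-flip permutation test, two-sided) and an adjusted p of 0.667. This value rests on single libraries, since it was −2.12 without WT replicate 1 and 0.654 without KO replicate 1, each with p = 0.0078 (exact permutation test), the smallest possible, in opposite directions, and −0.664 with p = 0.047 (exact permutation test) without WT replicate 2. In RCC4, a VHL-deficient clear cell renal cancer line, HIF-2α was called in either library at 43.7% of kept sites (41.8 to 45.6%), 17.8% of gained sites (15.1 to 20.8%) and 9.64% of lost sites (7.52 to 12.1%).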

How the data were processed

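The series has 50 ChIP-seq peak lists, 1 per library. Those used here are of HIF-2α, HIF-1α and HIF-1β in HKC-8 cells and of HIF-2α in RCC4 cells. The authors trimmed and aligned the reads and called peaks in each library against the human genome GRCh37 (hg19), and the submitters' processing notes name Trim Galore 0.3.3, BWA 0.7.5a-r405, SAMtools 0.1.19, Picard 1.106, MACS and bedtools 2.17.0. The deposited score of each peak is a number that was read as −10 log10 of the MACS p-value, from the method and the lowest value of 50, and it was used only as a rank within a list. The lists give neither read depth nor summits, so depth is unknown and no level was compared between libraries.

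Peaks on chromosomes 1 to 22, X and Y were used, with an overlap of at least 1 bp. Sites were assigned to the nearest of 89204 protein-coding transcript starts, and promoter-proximal means within 1 kb. Motifs were searched in the 201 bases at the centre of each site, and in the same length 2 kb to each side. Shares have 95% Clopper-Pearson intervals. Genotypes were compared over libraries by exact permutation tests, adjusted by the Benjamini-Hochberg method. The code was tested on simulated lists (Python 3.11.15, NumPy 2.4.6, SciPy 1.17.1, matplotlib 3.10.9, pyfaidx 0.9.0.4).

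Named sites were the 8 kept, 8 lost and 8 gained sites with the best mean rank, the 6 kept sites with the largest shift of rank in each direction when both HIF-1α KO ranks lay on one side of both WT ranks, and all sites next to a gene of a list. Some of these sites or their sequences are not reported here. The sites and gene lists were chosen with earlier results of these data known. The alternatives were lists of equal length, a score of at least 100, an overlap of 50%, a promoter distance of 5 kb, the starts of all transcripts, motifs over the whole peak, all peaks merged first, leaving out each library, and the replicate number as a block. Samples without a peak list were not analysed here.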

Additional observations from a re-analysis of the deposited data

Results flagged for a closer look

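The promoter-proximal share of peaks moved in opposite directions in the HIF-2α and HIF-1β lists when HIF-1α KO was compared with WT. It was higher in HIF-1α KO by 3.43 percentage points for HIF-2α. For HIF-1β the difference was −3.80 percentage points, with 12.1% and 12.9% in WT and 6.64% and 10.8% in HIF-1α KO. Both genotypes were separated without overlap under each antibody. The difference between the antibodies was 7.23 percentage points. It gave p = 0.0556 (exact permutation test of genotype labels within antibody, two-sided), the smallest p that the design allows. The differences for the HRE share, the AP-1 share and GC content were 2.39, 0.444 and 2.20 percentage points. They gave p = 0.722, p = 0.833 and p = 0.278 (exact permutation test, two-sided). These tests were not among the 10 tests over libraries, and their p-values were not adjusted. The HIF-1β lists held 3387 to 8279 peaks and the HIF-2α lists 4537 to 6749. HIF-1β is the partner of both isoforms in WT cells, and the WT HIF-1α lists had promoter-proximal shares of 20.1% and 18.3%. The paper reports that HIF-1β binding in HIF-1α KO cells lay far from promoters, much like that of HIF-2α. The parts of list length and of HIF-1α sites in the promoter-proximal difference were not tested.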

How the results depend on the processing

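With lists of equal length the intermediate KO sites numbered 573, and the number of peaks then has no value. With a score of at least 100 there were 1558 kept, 218 intermediate WT, 345 lost and 459 gained sites, and the severity and duration difference turned to 0.714. Leaving out 1 library at a time gave 2739 to 3469 kept, 0 to 1140 intermediate WT, 820 to 2084 lost, 0 to 1501 intermediate KO and 832 to 1967 gained sites, since 1 library then stands for a genotype. The severity and duration difference ranged from −2.12 to 0.654. Directions turned for the log2 number of peaks (−0.206 without WT replicate 1, −0.0808 without KO replicate 2), for the share at HIF-1α sites (1.111 without WT replicate 1) and for the rank of kept sites with HIF-1α (−1.10 without WT replicate 1, −1.32 without KO replicate 2). The log2 number of peaks ranged from −0.206 to 0.368, the share at HIF-1α sites from −5.25 to 1.111 and the rank from −1.32 to 9.65. The overlap, promoter, HRE, AP-1, GC and HIF-1β differences kept their direction under each alternative run. As libraries were left out, the HIF-1β difference ranged from −62.7 to −36.9, the HRE difference from 1.06 to 7.41 and the AP-1 difference from 0.0148 to 0.987 percentage points. Without chromosome 8, an alternative chosen after seeing the data, 607 sites were lost. The cause of these shifts was not tested.

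With the replicate number as a block the promoter difference was 3.43 percentage points with p = 0.5 (exact permutation test), the smallest p such a block allows, and the other values were likewise those without it. Rank deviations of same-numbered libraries correlated at 0.106 over 2636 sites. With only 2 pairs, this value cannot show whether such libraries share more than a number. The HRE share was higher in replicate 1 for HIF-2α, at 49.5% and 43.1% in WT and 51.9% and 49.1% in HIF-1α KO. HIF-1β had the same order, at 53.9% and 45.5% in WT and 53.8% and 49.3% in HIF-1α KO. Within each replicate number, the HRE share of HIF-2α was higher in HIF-1α KO, and its share at HIF-1α sites was lower. A shared batch was not tested further. The lists hold no read counts, so what depth limits could not be measured, and sites near the score of 50 are the least certain.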

Other observations

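Of the 15 gained sites that coincided with a WT HIF-1α site, 7 lay within 1 kb of a start site. Beyond the sites near NEK6, IGFL1 and NARF, the best mean rank in HIF-1α KO was 43.6%, at the promoter of RPN1, a subunit of the oligosaccharyltransferase. Another was at the start of TMEM248, whose central window held 9 HRE cores. HRE cores stood at 72 of the 102 promoter-proximal gained sites, 70.6% (60.7 to 79.2%), and at 115 of the 192 promoter-proximal kept sites, 59.9% (52.6 to 66.9%).

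In HIF-2α KO cells HIF-1α was called in either library at 25.8% of kept sites (24.2 to 27.6%) and 5.34% of lost sites (3.77 to 7.32%). Among lost sites 51.0% (47.2 to 54.9%) had neither an HRE core nor an AP-1 site in the central window, against 41.7% of kept (39.8 to 43.6%) and 36.6% of gained sites (33.1 to 40.2%). Outside chromosome 8, the 5 Mb intervals with the most lost sites were on chromosome 9 at 110 to 115 Mb, with 7 of 19, and on chromosome 18 at 5 to 10 Mb, with 7 of 14.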
